A study of Homo sapiens with 12 samples.

Results

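The 57 genes described here act in building the large ribosomal subunit, in the nucleolus more widely, or in transcription by RNA polymerase I (Pol I). They were taken as a list of 57 gene symbols, with no measured value in the rule. The list was chosen with earlier results of these data known. All 57 were found among the 38516 genes of the deposited table. Expression was measured by RNA sequencing of total RNA from the established human lines KYSE150 and KYSE510, both grown from squamous carcinomas of the esophagus. Each line was studied as control cells and as cells in which HCP5, a long non-coding RNA gene, had been silenced, with 3 libraries in each of the 4 groups and no other treatment, genotype or time named. The library titles begin with sh, and the labels do not spell out the silencing or control reagent, a clone or a pool. Nothing in the sources used here says whether the 3 libraries of a group came from separate cultures, so p-values measure only the spread between these libraries, which may be technical. The series title names apoptosis, c-Myc (gene MYC) and UTP3 beside HCP5, and the comparisons below show how the large-subunit and Pol I genes stood in the same cells.

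Ribosomes are put together in the nucleolus. Pol I, guided by UBTF, the SL1 factors (TAF1B, TAF1C, TAF1D and partners) and RRN3, transcribes a long precursor RNA. Many assembly factors then fold, modify and cut that RNA while ribosomal proteins join it: scaffold proteins and NOC proteins early, RNA helicases and GTPases at each remodelling step, the rixosome and the ATPase MDN1 when the internal spacer is removed, and export factors at the end. Growing tumour cells make many ribosomes, and MYC is known as an activator of genes of this pathway, often through the E-box CACGTG in their promoters.

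The deposited values are RPKM: reads per length of exon and per size of library. Whole reads recovered from them summed to between 20035025 and 28202422 per library. In KYSE150 every silenced library was deeper than every control. A gene was tested where 3 or more libraries reached 0.5 RPKM, which held for all 57 members and for 17823 genes in all. The lowest member value in any library was 1.93 RPKM (NOL9), and the fewest reads behind one were 224 (TAF1B). Of 8 epithelial markers, not all particular to squamous epithelium, KRT5 (205 to 1420 RPKM over the 12 libraries), TP63 (14.9 to 24.6), EPCAM (86.1 to 209) and CDH1 (18.2 to 42) were present throughout. SOX2 ran from 0.059 to 9.87. The summed level of the 8 was 638 to 1220 RPKM in KYSE150 controls and 934 to 2230 in KYSE150 silenced cells, 855 to 1400 in KYSE510 controls and 1050 to 2160 in KYSE510 silenced cells, and whether it bears on the results below was not tested. Of 9 markers of fibroblasts, leukocytes, macrophages and endothelium, 8 stayed at or under 0.8 RPKM in every library, and CD68 ran from 29.7 to 47.1.

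HCP5, the silenced gene (GRCh38 chr6:31400702-31477506), read 0.779, 0.745 and 0.786 RPKM in KYSE150 controls 1, 2 and 3, and 0.315, 0.418 and 0.579 in the silenced libraries of the same numbers. The KYSE510 controls read 0.914, 1.85 and 1.4, and the silenced libraries 0.505, 0.951 and 0.948. The groups did not overlap in KYSE150, and in KYSE510 control 1 lay below silenced libraries 2 and 3, although each silenced library was below the control of its own number. On the log2(RPKM + 0.5) scale used throughout, HCP5 differed by -0.45 in KYSE150 (SE 0.20, limma adjusted p = 0.267) and by -0.53 in KYSE510 (SE 0.20, adjusted p = 0.646). Neither passed the threshold of 0.05. Mean HCP5 went from 0.77 to 0.437 RPKM in KYSE150 and from 1.39 to 0.801 in KYSE510. At levels this low the added 0.5 makes the log2 changes smaller than the ratios of these means. MYC stood at 7.47 ± 2.58 RPKM (SD, n = 3) in KYSE150 controls and 67.5 ± 11.7 in KYSE510 controls. With silencing, MYC differed by 0.27 in KYSE150 (limma adjusted p = 0.62, 0.0439 with a replicate block, which pairs same-numbered libraries) and by -0.14 in KYSE510 (adjusted p = 0.975). UTP3, a small-subunit factor, differed by -0.22 and 0.05 (adjusted p = 0.264 and 0.976).

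The E-box CACGTG was looked for in the promoters, since MYC and its partner MAX bind it. The motif is its own reverse complement, so a match counts for both strands. RefSeq promoter windows (GRCh38.p14, 250 bases before to 50 after the annotated start, 300 bases in all) were matched for 49 of the 57 members, and 11 of the 49 (22.4%) held the motif. Of all 27305 RefSeq promoters of that length 7.43% held it, as did 10.4% of the 9560 promoters matched to genes tested. The median GC content was 63.7% in the members' windows and 65.0% in those of the genes tested. The motif lay in 4 of 7 windows of the rixosome and Rea1 group (MDN1, NLE1, PELP1, TEX10), in 0 of 4 of the Pol I subunits and in 0 of 5 of the Pol I initiation factors. DDX54, EBNA1BP2, GNL2, MRTO4, NOC3L, NOP2 and PES1 held the others. A match is a string of letters and not a measured binding site. The stretches below run 5′ to 3′ on the gene's strand, with the motif in capitals. They are shown for members whose RPKM values are given later, so that the start of each gene can be set beside its expression. DDX54, GNL2, MRTO4 and TEX10, given later by fold change alone, have no stretch here.
NOC3L: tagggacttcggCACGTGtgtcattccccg
EBNA1BP2: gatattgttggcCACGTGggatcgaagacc
NOP2: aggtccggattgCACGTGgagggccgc
PES1: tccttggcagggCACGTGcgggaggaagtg
NLE1: ctctttctcctcCACGTGgggacgcaggat
PELP1: gtccggacCACGTGtacctttaacat
MDN1: tttctgtcccacCACGTGctgtgttcgcga
MDN1: cgtgtgctcaccCACGTGtggtgcccctct
The NOC3L stretch lies at chr10:94362903-94362932, with the motif starting at position 19 from the annotated start (negative positions lie before it). The EBNA1BP2 stretch is at chr1:43172790-43172819, with the motif at -237, and that of NOP2 at chr12:6568242-6568268, with the motif at 35. The PES1 (chr22:30591880-30591909) and NLE1 (chr17:35142274-35142303) motifs start at 13 and 12, and that of PELP1 (chr17:4704362-4704387) at -242. MDN1 was the 1 member with 2 motifs in its window, at -155 (chr6:89819932-89819961) and 27 (chr6:89819750-89819779). All of these genes lie on the minus strand. Positions are counted from the RefSeq start, which is not always that of the counted gene model: it lies 98366 bases inside the model of EBNA1BP2 and 15173 inside that of PES1, and within 400 bases of the model's start in the other 9 members with the motif. In KYSE150, 8 of the 11 members with the motif and 30 of the 38 without it were lower after silencing, with median log2 fold changes of -0.23 and -0.13. In KYSE510 the medians were 0.02 and 0. These splits were not tested.

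In KYSE150, most large-subunit genes stood lower in silenced than in control cells, by small amounts, and 1 of 57 passed the test. NOC3L, which with NOC2L escorts early large-subunit particles out of the nucleolus, fell from 28.1 ± 2.6 to 20.4 ± 1.01 RPKM (SD, n = 3 each). The fall in NOC3L was one of 22 among all genes tested (0.123%), and 0.499% of genes were called in either direction. Of the 57 members, 44 were lower and 13 higher, with a median log2 fold change of -0.17. Of all genes tested 33.9% were lower, with a median of 0.08. Among all genes at the levels of the highest, middle and lowest 19 members, 53.2%, 38.9% and 29.6% were lower (levels taken in KYSE510 controls). At an unadjusted p under 0.05, 21 members were lower and 1 was higher (NOL9), against 4.82% and 13.3% of all genes. All 3 silenced libraries lay below all 3 controls in 14 members, a pattern shown by 5.47% of all genes, and above them in 1 (13.7%). Each silenced library was below the control of its own number in 37 members (13.7% of all genes) and above it in 6 (37.4%). In bulk RNA, fewer cells of a type and less RNA per cell cannot be told apart, and whether the greater depth of the KYSE150 silenced libraries bears on these values was not tested.

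**Figure D1:**
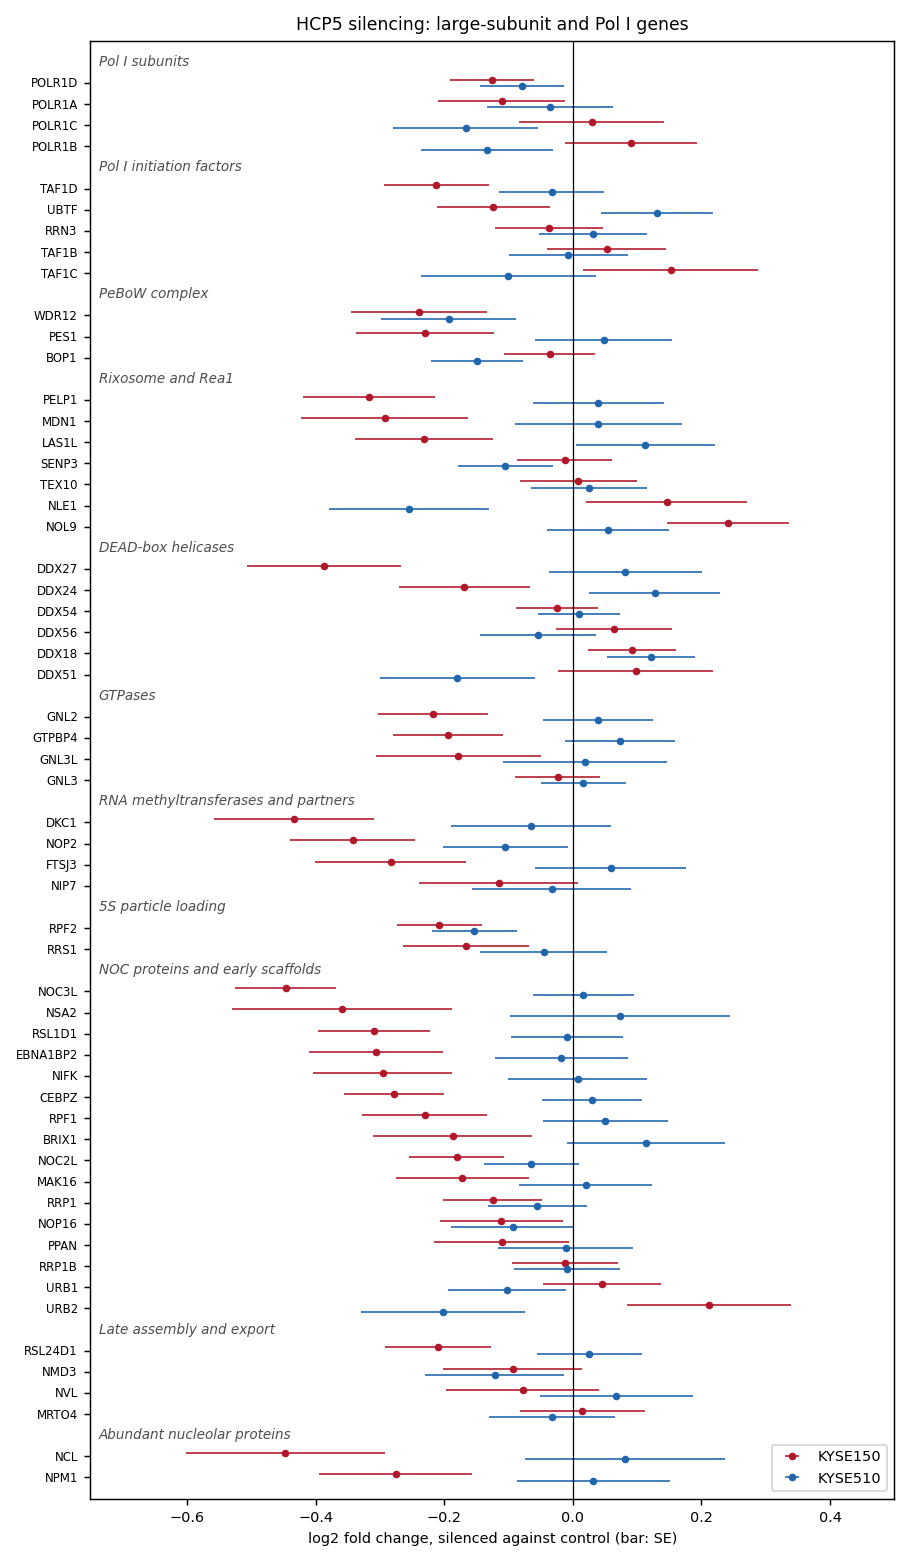
Log2 fold change on silencing (x axis, log2(RPKM + 0.5) scale, bar: SE of the limma fit) of each of the 57 members (rows, grouped by role), in KYSE150 (red) and KYSE510 (blue). In KYSE150 44 members lie left of 0, with NCL and NOC3L farthest at -0.45, and in KYSE510 29 do.

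Scaling moved these counts. With centred libraries most members stayed lower in KYSE150, all genes turned from mostly higher to mostly lower, and the NOC3L call was lost. When each library was centred on the median of the genes tested, the median of all genes in KYSE150 moved by -0.13, to -0.05, and 53 of 57 members were lower (93% against 77.2% as deposited), with a median of -0.30. Of all genes 58.9% were then lower, against 33.9% as deposited. The same centring took 9 of the 13 higher members below 0, and the 4 that stayed above were NOL9, URB2, TAF1C and NLE1. Seen library by library, the summed RPKM of the members was 5049.4, 5203.9 and 4355.4 in KYSE150 controls and 4414.4, 3985.9 and 3741.1 in silenced libraries. Only control 3 and silenced library 1 crossed. NPM1 and NCL made up 42.2% to 49.3% of these sums. Without that pair the controls summed to 2736, 2637 and 2473, and the silenced libraries to 2451, 2169 and 2164. The median level of the 57 within a library did not follow the sums: on the log2(RPKM + 0.5) scale, controls 1, 2 and 3 read 4.987, 5 and 5.181, against 5.104, 5.004 and 5.025 after silencing, with every silenced library above controls 1 and 2 and control 3 the highest. Control 3 was the lowest of its group in 30 members (52.6%, against 22.7% of all genes), and silenced library 1 the highest of its group in 40 (70.2%, against 20.5%). Without KYSE150 control 3, 8 members were called lower in place of 1 (NOC3L, PELP1, DDX27, NOP2, NSA2, RSL1D1, NPM1 and NCL), as were 1.75% of all genes in place of 0.123%.

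**Figure D2:**
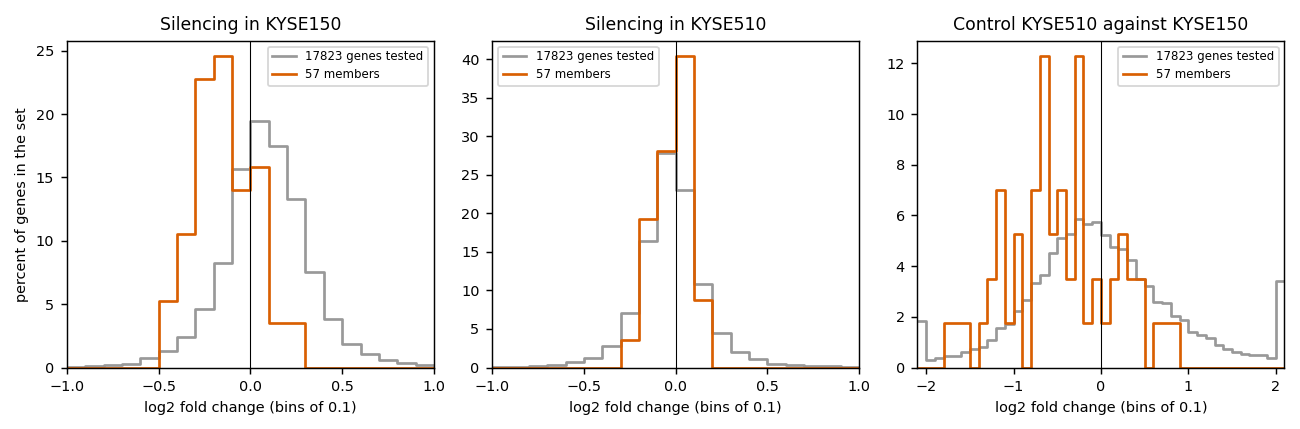
Share of genes (y axis, percent) in bins of log2 fold change (x axis, 0.1 wide) for the 57 members (orange) and the 17823 genes tested (grey), for silencing in each line and for KYSE510 against KYSE150 controls, where the outermost bins gather all genes beyond them. In KYSE150 the members centre on -0.17 and all genes on 0.08, and in KYSE510 both centre near 0.

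The genes of Pol I and its initiation factors had medians near 0 in KYSE150 as deposited, both at -0.04. With centred libraries both medians were -0.17, with 4 of 4 subunits and 4 of 5 initiation factors lower. POLR1A, the largest and catalytic subunit (chr2:86020216-86106155), read 15, 14 and 12.9 RPKM in controls and 13.9, 12.1 and 12.8 in silenced cells (-0.11, SE 0.10). POLR1B, the next largest, read 12.6, 11.1 and 12.9 against 12.8, 12.4 and 13.8 (0.09, SE 0.10). In both genes the groups overlapped. POLR1C and POLR1D are shared with RNA polymerase III. POLR1C read 7.26, 6.03 and 7.31 in controls and 7.15, 6.28 and 7.61 in silenced cells, again overlapping (0.03, SE 0.11). POLR1D read 9.04, 9.4 and 9.76 against 8.23, 8.9 and 8.59, so all silenced libraries lay below the controls (-0.13, SE 0.07). None of the 4 passed the test (limma adjusted p from 0.328 to 0.933).

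UBTF, the architectural factor of the ribosomal gene promoter (chr17:44205033-44221626), read 51.2, 54.4 and 46.9 RPKM in KYSE150 controls and 49.6, 45.1 and 45.1 in silenced cells. RRN3, which bridges Pol I to the promoter, read 19.3, 16.9 and 20.3 against 18.4, 17.8 and 18.7. Both sets of values overlapped, with log2 fold changes of -0.12 and -0.04. Among the SL1 subunits, TAF1D read 14.1, 12.6 and 12.8 in controls and 11.7, 10.7 and 11.5 in silenced cells, without overlap (-0.21, SE 0.08, limma adjusted p = 0.223), although 16.2% of its exon bases are shared with other genes, small nucleolar RNAs among them. TAF1B read 2.75, 3.01 and 2.62 against 3.14, 2.82 and 2.79, and TAF1C 4, 4.06 and 5.37 against 4.93, 4.66 and 5.4. These 2 overlapped and stood slightly higher after silencing (0.05 and 0.15, adjusted p = 0.806 and 0.57).

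The PeBoW complex (PES1, BOP1 and WDR12) is needed to mature the large-subunit RNA, and its 3 genes were all lower in KYSE150 by unlike amounts. PES1 (chr22:30576625-30607083) read 95.3, 84.8 and 90.9 RPKM in KYSE150 controls and 87.6, 73.8 and 70.3 in silenced cells (-0.23, SE 0.11), with only silenced library 1 inside the range of the controls. WDR12 read 6.29, 6.02 and 5.53 against 5.25, 4.71 and 4.92, without overlap (-0.24, SE 0.11). BOP1 read 29.6, 29.3 and 31 against 27.4, 31.3 and 29, with silenced library 2 the highest of the 6 (-0.04, SE 0.07). No PeBoW gene passed the test (limma adjusted p = 0.284, 0.266 and 0.834 for PES1, WDR12 and BOP1). Voom on the recovered reads with the block, chosen after the data were seen, called PES1 (adjusted p = 0.046) and WDR12 (0.0243) lower, and not BOP1 (0.758).

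The lowest group median in KYSE150 among groups of at least 4 genes belonged to the RNA methyltransferases and their partners. It was -0.31, with 4 of 4 lower. The group as listed also holds DKC1, its lowest gene, which is not a methyltransferase. DKC1 (chrX:154762742-154777689) encodes dyskerin, the pseudouridine synthase of H/ACA small nucleolar particles. It read 201, 176 and 163 RPKM in controls and 153, 120 and 128 in silenced cells, without overlap. DKC1 differed by -0.43 (SE 0.12) at a limma adjusted p of 0.131, or 0.0338 with the replicate block, and 0.00147 to 0.387 over all alternatives. NOP2, a cytosine methyltransferase of the large-subunit RNA (chr12:6556863-6568691), read 74.2, 69.1 and 63.9 against 60.1, 49.8 and 53.4, also without overlap (-0.34, SE 0.10, adjusted p = 0.13). FTSJ3, a ribose methyltransferase, read 192, 202 and 163 in controls and 170, 150 and 137 in silenced cells, where silenced library 1 overlapped control 3 (-0.28). NIP7, a partner of NOP2 and FTSJ3 in precursor processing, read 75.1, 63.9 and 61.1 against 69.7, 57.3 and 57.6 and overlapped (-0.12).

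Among the 16 NOC proteins and early scaffolds, 14 were lower in KYSE150, with a median of -0.18. NOC3L (chr10:94333226-94362959) read 29.7, 29.4 and 25.1 RPKM in controls and 21.6, 20 and 19.7 in silenced cells. The highest silenced value lay well below the lowest control. Its log2 fold change was -0.45 (SE 0.08, 95% interval -0.62 to -0.27), with an adjusted p of 0.0412, 0.0195 with the block and 0.000739 to 0.225 over all alternatives. With each of the 12 libraries left out in turn the NOC3L call stood 2 times, without KYSE150 control 3 (0.0117) and without KYSE510 control 1 (0.0474). In the other 10 the NOC3L adjusted p ran from 0.0559 to 0.168, at fold changes of -0.49 to -0.40.

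With the replicate block, 5 members were called lower in KYSE150 (1.66% of all genes were): NOC3L, DKC1, RSL1D1, EBNA1BP2 and NIFK. RSL1D1, a nucleolar protein with a ribosomal L1 domain (chr16:11833850-11851585), read 77.4, 75 and 69.5 RPKM in controls and 64.8, 57.7 and 56.4 in silenced cells, without overlap (-0.31, SE 0.09). EBNA1BP2, an early scaffold (chr1:43164175-43270936), read 149, 162 and 134 against 134, 124 and 102, with silenced library 1 at the level of control 3 (-0.31, SE 0.10). EBNA1BP2 shares 18.8% of its exon bases with CFAP57 on the opposite strand. NIFK, which binds the proliferation protein encoded by MKI67 (chr2:121726945-121736923), read 58, 50.5 and 50.3 against 49.9, 38.1 and 41.6, just without overlap (-0.30, SE 0.11). In RSL1D1, EBNA1BP2 and NIFK the limma adjusted p was 0.126, 0.184 and 0.205 without the block and 0.0445, 0.0458 and 0.0405 with it. Over all alternatives it ran from 0.00618 to 0.399, 0.00641 to 0.52 and 0.00812 to 0.508. NSA2 had a fold change of -0.36 but the largest SE of the 57 (96.2, 112 and 67 RPKM in controls, 81, 72.2 and 58.3 in silenced cells, SE 0.17, adjusted p = 0.293). It shares 58.7% of its exon bases with other genes, mostly FAM169A on the opposite strand, and the use of strand in counting is not given in the sources used here. URB2 and URB1 were the 2 scaffolds not lower. URB2 read 3.17, 2.39 and 3.63 against 3.53, 3.48 and 3.75 (0.21, adjusted p = 0.393), with overlap, and URB1 had a fold change of 0.05.

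The other scaffolds were all lower in KYSE150 and not called by limma, with or without the block. Voom with the block, an alternative chosen after the data were seen, called NOC2L (adjusted p = 0.0445), CEBPZ (0.0172), RPF1 (0.0332) and BRIX1 (0.045) lower. NOC2L and CEBPZ, the other NOC proteins, stood at -0.18 and -0.28, both without overlap between groups. CEBPZ shares 23.2% of its exon bases with other genes on the opposite strand. Of the Brix-family proteins, which bind the maturing RNA, RPF1 stood at -0.23, BRIX1 at -0.19 and PPAN at -0.11. PPAN shares 59.8% of its exon bases with other genes, mostly the read-through gene PPAN-P2RY11 on its own strand, so its level is uncertain. MAK16 and NOP16 stood at -0.17 and -0.11, and share 19.2% and 20.0% of their exon bases with genes on the opposite strand. RRP1 and RRP1B, paralogs between which the counting could have split reads, stood at -0.12 and -0.01.

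NPM1 and NCL encode nucleophosmin and nucleolin, chaperones that fill the nucleolus, and were the most abundant members. NCL (chr2:231453531-231483641) read 801, 831 and 620 RPKM in KYSE150 controls and 638, 526 and 485 in silenced cells. NPM1 (chr5:171387116-171411137) read 1512, 1736 and 1262 against 1325, 1291 and 1092. In both genes a silenced library reached above control 3, and each silenced library was below the control of its own number. NCL differed by -0.45 (SE 0.15) and NPM1 by -0.28 (SE 0.12), at limma adjusted p of 0.19 and 0.259. NPM1 has processed pseudogenes elsewhere in the genome, between which and NPM1 the counting could have split reads, so its level is uncertain.

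**Figure D3:**
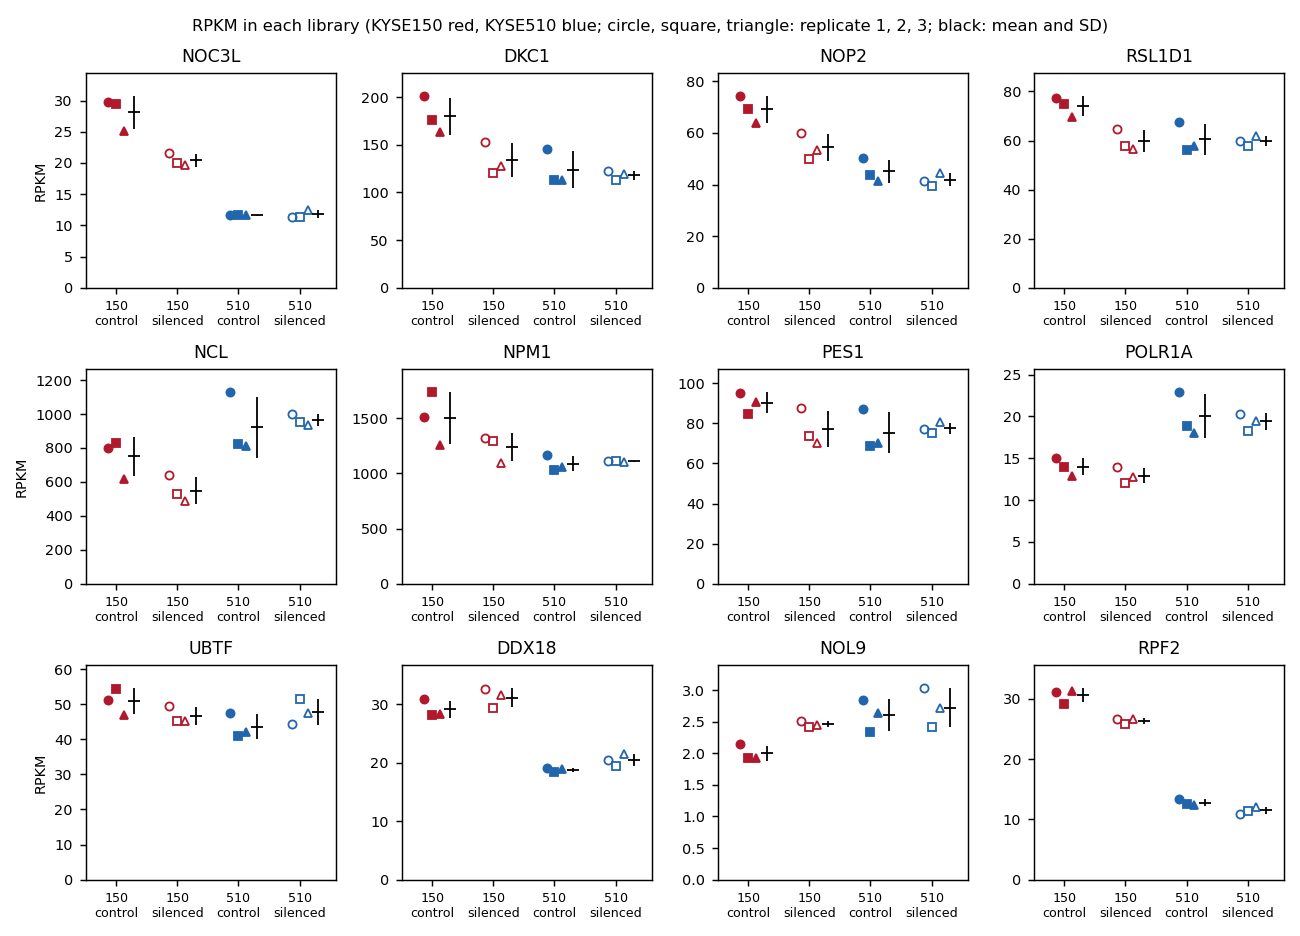
RPKM (y axes, from 0) of 12 members in every library, by group (x axis), with KYSE150 in red, KYSE510 in blue, filled marks for controls and open marks for silenced cells, shapes for replicate numbers, and the mean with SD (n = 3) in black. NOC3L falls from 28.1 to 20.4 in KYSE150 and stays between 11.4 and 12.4 in KYSE510, and NOL9 is the 1 member with every KYSE150 silenced library above every control.

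The helicases, GTPases and rixosome genes were mixed in KYSE150. DDX27, an RNA helicase that works with PeBoW (chr20:49219295-49244077), read 122, 135 and 101 RPKM in controls and 103, 87.9 and 82.4 in silenced cells, with silenced library 1 just above control 3 (-0.39, SE 0.12, limma adjusted p = 0.152). Of the other 5 helicases DDX24 was lower by a larger amount (-0.17) than DDX54 (-0.02), and DDX18, DDX51 and DDX56 were higher by 0.10 or less. The median of the 6 helicases was 0.02 as deposited and -0.11 with centred libraries. DDX51 read 5.07, 4.29 and 5.89 against 5.34, 4.99 and 6.01, and DDX18 30.9, 28.2 and 28.3 against 32.5, 29.3 and 31.5, both with overlap. All 4 GTPases were lower, at -0.22 in GNL2, -0.19 in GTPBP4, -0.18 in GNL3L and -0.02 in GNL3 (nucleostemin), and 0 of 4 passed the limma test (2 were lower at an unadjusted p under 0.05, and voom called 0, or GNL2 with the block).

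In the rixosome, the complex that cuts and clears the internal spacer, PELP1 (27.7 ± 3.78 to 22.0 ± 1.57 RPKM), LAS1L (47.3 ± 5.95 to 40.1 ± 3.04) and the ATPase MDN1 (15.6 ± 2.04 to 12.6 ± 1.6) were lower in KYSE150, at -0.32, -0.23 and -0.29 (limma adjusted p = 0.167, 0.283 and 0.269). LAS1L is the endonuclease of the complex. Its partner kinase NOL9 (chr1:6521347-6554535) read 2.14, 1.93 and 1.93 RPKM in controls and 2.51, 2.42 and 2.44 in silenced cells, the highest fold change of the 57 (0.24, SE 0.09, adjusted p = 0.228). NLE1, which MDN1 pulls from the maturing particle, read 3.82, 3.17 and 4.89 against 4.38, 4.15 and 4.6 and overlapped (0.15). TEX10 and SENP3 stood at 0.01 and -0.01, the latter with 41.2% of its exon bases shared with the read-through gene SENP3-EIF4A1.

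RPF2 and RRS1 load the 5S RNA with its proteins onto the particle. RPF2 (chr6:110982015-111028263) read 31.2, 29.2 and 31.3 RPKM in KYSE150 controls and 26.7, 25.8 and 26.7 in silenced cells, without overlap and with a small spread (-0.21, SE 0.07, limma adjusted p = 0.162). RRS1 overlapped (-0.17). Of the late factors, RSL24D1, a placeholder for a ribosomal protein, went from 52.6 ± 4.38 to 45.3 ± 1.15 RPKM without overlap (-0.21, adjusted p = 0.228). The export adaptor NMD3, the ATPase NVL and MRTO4 stood at -0.09, -0.08 and 0.01.

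In KYSE510, 29 of 57 members were lower and 28 higher on silencing, with a median of -0.01, which was 0.02 with centred libraries (24 lower). Over all genes 56.8% were lower, with a median of -0.02. Limma called 0 of 57 (0.0393% of all genes), as did the block fit (0.112%) and voom with or without the block. At an unadjusted p under 0.05, 1 member was lower (3.37% of all genes) and 0 were higher (2.98%). The groups were apart in 6 members: POLR1D, BOP1, SENP3, NLE1 and RPF2 were lower in every silenced library (6.87% of all genes were) and DDX18 higher (5.22%). In same-numbered pairs, 15 members were lower 3 times of 3 (21.8% of all genes) and 6 were higher (16%). Control 1 was the highest control in 36 members (63.2%, against 20.7% of all genes), and the summed RPKM of the members was 4108.2 there against 3438.8 and 3473.7 in controls 2 and 3, with 3789.5, 3682.4 and 3737.9 in silenced libraries. Without control 1 the median was 0.03, and without control 2 it was -0.04 (38 lower).

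The lowest fold change in KYSE510 was that of NLE1, which read 3.81, 3.6 and 3.93 RPKM in controls and 3.17, 2.79 and 3.32 in silenced cells, without overlap (-0.25, SE 0.13, limma adjusted p = 0.847). URB2 read 3.78, 4.4 and 4.5 against 3.4, 3.38 and 4.05 and overlapped (-0.20). In KYSE150 both were among the 4 members with the highest fold change, of the opposite sign. WDR12 of PeBoW read 7.13, 8.02 and 8.15 against 5.64, 7.41 and 7.25 (-0.19, SE 0.11), the same direction as in KYSE150 but with overlap. DDX51 read 3.3, 3.8 and 4.1 against 3.07, 3.07 and 3.56 (-0.18), and POLR1C 11.9, 13.1 and 14 against 10, 11.9 and 12.8 (-0.17). In DDX51 and POLR1C the groups overlapped. RPF2 read 13.4, 12.5 and 12.4 against 10.9, 11.4 and 12.1, and BOP1 21, 20.6 and 19.7 against 19.4, 17.3 and 18.6. Neither overlapped, at -0.15 and -0.15 (adjusted p = 0.761 and 0.819).

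At the other end, UBTF read 47.5, 41 and 42.1 RPKM in KYSE510 controls and 44.2, 51.5 and 47.5 in silenced cells (0.13, SE 0.09), with silenced library 1 within the controls. The helicase DDX24 read 32.5, 26.3 and 28.8 against 32.4, 28.7 and 34.5 (0.13). DDX18 read 19, 18.4 and 18.9 against 20.5, 19.5 and 21.5, every silenced library above every control (0.12, SE 0.07). BRIX1, a scaffold of the Brix family, read 59.9, 42.9 and 46.2 against 59.9, 48.5 and 51.9 (0.11), and LAS1L 37.2, 32.5 and 29.9 against 37.2, 36 and 34.3 (0.11). In all but DDX18 the groups overlapped. The limma adjusted p of these 5 ran from 0.862 in DDX18 to 0.95 in BRIX1.

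The other Pol I genes differed little in KYSE510. POLR1A read 22.9, 18.9 and 18 RPKM in controls and 20.3, 18.3 and 19.5 in silenced cells. POLR1B read 6.63, 7.08 and 7.6 against 6.18, 5.72 and 7.49, and POLR1D 5.86, 5.99 and 5.85 against 5.41, 5.49 and 5.77. All 4 Pol I subunits were thus lower, from -0.04 to -0.17, and the groups were apart only in POLR1D. Of the initiation factors, TAF1B read 4.26, 5.29 and 4.62 against 4.5, 4.6 and 4.94, and TAF1C 2.97, 3.67 and 4.13 against 2.87, 3.57 and 3.45. TAF1D read 5.14, 5.53 and 6.22 against 5.31, 5.45 and 5.68, and RRN3 12.5, 12.9 and 14.1 against 13.1, 12.8 and 14.4. In these 4 genes the groups overlapped. PES1, the remaining PeBoW gene, read 87.3, 68.8 and 70.3 against 77.1, 75 and 80.6 (0.05).

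The members that led in KYSE150 stood near 0 in KYSE510. NOC3L read 11.6, 11.6 and 11.6 RPKM in controls and 11.4, 11.4 and 12.4 in silenced cells (0.02, 95% interval -0.16 to 0.19). DKC1 read 146, 113 and 113 against 122, 113 and 119 (-0.06, 95% interval -0.34 to 0.21). NCL read 1129, 825 and 809 against 1003, 954 and 933, with control 1 the highest of all 12 libraries (0.08, 95% interval -0.26 to 0.42). NPM1 read 1169, 1034 and 1059 against 1111, 1114 and 1105, the silenced libraries within a few RPKM of each other. RSL1D1 read 67.6, 56.3 and 57.6 against 59.9, 57.9 and 62, and EBNA1BP2 97.5, 87.9 and 87.2 against 90.5, 87.3 and 91.1. In NPM1, RSL1D1 and EBNA1BP2 the groups overlapped. NIFK read 33.5, 28 and 29.1 against 31.5, 28.5 and 31, DDX27 59.9, 50.7 and 48.9 against 56.2, 57.2 and 54.9, and NOL9 2.84, 2.34 and 2.63 against 3.03, 2.42 and 2.72. These 3 overlapped too, at 0.01, 0.08 and 0.05.

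The difference between the lines (KYSE510 change minus KYSE150 change) was tested directly. It was above 0 in 43 of 57 members, with a median of 0.12, where the median over all genes was -0.12. Limma called 0 members and 0% of all genes, with or without the block, and voom without the block also called 0 members. At an unadjusted p under 0.05, 8 members were higher (3.41% of all genes) and 2 lower (8.83%). The values were 0.53 (SE 0.22, limma adjusted p = 0.399) in NCL, 0.47 (SE 0.17) in DDX27 and 0.46 (SE 0.11, adjusted p = 0.389, 0.109 with the block) in NOC3L. At the low end stood URB2 (-0.41) and NLE1 (-0.40, adjusted p = 0.408). Voom with the replicate block called 8 members higher (2.14% of all genes): LAS1L, DDX27, DKC1, NOC3L, BRIX1, NSA2, NPM1 and NCL. In that fit the difference was 0.47 in NOC3L (adjusted p = 0.0213) and 0.53 in NCL (0.0246). It also called 24 members lower in KYSE150 (4.43% of all genes), among them TAF1D, LAS1L, MDN1, PELP1, FTSJ3, NOP2, RPF2 and RSL24D1, and NOL9 higher.

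Averaged over the lines, 49 of 57 members were lower and 8 higher, with a median of -0.08, against 40.9% lower and a median of 0.03 over all genes. Limma called 0 members (0.539% of all genes), and 0 with the block (2.74%), as did voom without the block. At an unadjusted p under 0.05, 10 were lower (3.59% of all genes) and 2 higher (7.87%), the latter NOL9 and DDX18. The lowest means were those of DKC1 (-0.25), WDR12 (-0.22), NOP2 (-0.22), NOC3L (-0.22, limma adjusted p = 0.143) and RPF2 (-0.18, SE 0.05, adjusted p = 0.145). RPF2 and POLR1D were the 2 members below all their controls in every silenced library of both lines, a pattern shown by 0.656% of all genes. Voom with the block called 7 members lower (1.64% of all genes): WDR12, NOP2, DKC1, RPF2, NOC3L, EBNA1BP2 and RSL1D1.

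The members are well expressed. Their median was 32.2 RPKM in KYSE150 controls and 26.4 in KYSE510 controls, against 3.31 and 3.24 over the genes tested, and 54 and 56 of 57 lay above the median of the genes tested. RPKM is a level per exon length, so members can be ranked. In KYSE150 the order ran from NPM1 (1500 ± 237), NCL (750 ± 114), FTSJ3 (186 ± 20) and DKC1 (180 ± 19.2) down to URB2 (3.06 ± 0.623), TAF1B (2.79 ± 0.196) and NOL9 (2 ± 0.122). In KYSE510 it ran from NPM1 (1090 ± 71.8), NCL (921 ± 180) and DKC1 (124 ± 19.3) to TAF1C (3.59 ± 0.584) and NOL9 (2.6 ± 0.251). FTSJ3 and DKC1 in KYSE150, URB2 and TAF1B in KYSE150, and NPM1 and NCL in KYSE510 differed by less than the sum of their SDs.

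Within the set, the change on silencing went with the level. To keep the same libraries from entering both measures, the change in a line was set against the mean RPKM in the other line's controls. In KYSE150 all 19 members of highest level (37.8 to 1090 RPKM in KYSE510) were lower, with a median of -0.28. Among all genes of that range of levels, 53.2% were lower and the median was -0.02. Of the next 19 (14.5 to 34.2 RPKM), 16 were lower, with a median of -0.12, against 38.9% of genes at that level (median 0.06). Of the 19 of lowest level (2.6 to 14.4 RPKM), 9 were lower, with a median of 0.01, against 29.6% (median 0.1). All genes of these ranges thus also stood lower where the level was higher, by smaller amounts. Spearman's rank correlation between change and level was -0.602 over the 57 members, which share the 6 libraries and their depth. Over all genes it was -0.066, but their levels are unlike those of the members (medians of 3.24 and 26.4 RPKM in KYSE510 controls). For silencing in KYSE510 the correlation was 0.354 over the members (0.008 over all genes), and 9, 6 and 14 of 19 were lower from the highest set to the lowest. These are descriptions without a test.

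**Figure D4:**
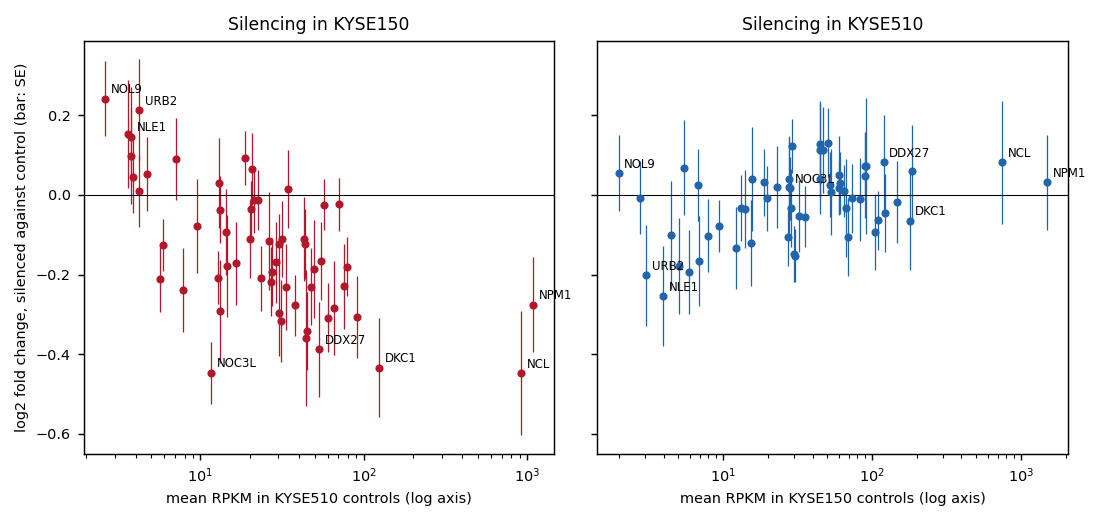
Log2 fold change on silencing (y axes, bar: SE) of the 57 members against their mean RPKM in the controls of the other line (x axes, log scale), in KYSE150 (left) and KYSE510 (right). In KYSE150 the points descend from NOL9 at 0.24 to NCL at -0.45, with NOC3L low for its level of 11.6 RPKM, and in KYSE510 they stay between -0.25 and 0.13.

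Control cells of the lines were also compared with each other. Of 57 members, 49 were called between control KYSE510 and control KYSE150 (62% of all genes were), 40 lower in KYSE510 (33.7%) and 9 higher (28.3%). Of the 49, 40 were also called whichever of the 12 libraries was left out. Members stood at higher levels than all genes (median 32.2 against 3.31 RPKM in KYSE150 controls), and shares at matched levels were not taken. The median log2 difference was -0.50, against -0.07 over all genes, and with centred libraries it was -0.47, with 34 called lower and 9 higher. Each side is a single cell line, so the p-values speak of these lines' libraries alone. The mitochondrial share of reads was 7.49% to 8.91% over the KYSE150 libraries and 10.2% to 11.5% over those of KYSE510, and whether it bears on the difference was not tested.

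The lowest in KYSE510 was NOP16, an early large-subunit factor (chr5:176383938-176388975), which read 111, 94.6 and 110 RPKM in KYSE150 controls and 32.3, 30.3 and 32.5 in KYSE510 controls (-1.71, SE 0.10, limma adjusted p = 4.37e-08). The GTPase GTPBP4 (chr10:988019-1019936) read 93.1, 93.4 and 82.9 against 30.1, 25.8 and 26.4 (-1.69, SE 0.09). FTSJ3 (chr17:63819433-63830012) read 76.2, 62.2 and 57.9 in KYSE510 controls, below the KYSE150 values above (-1.50, SE 0.12). These 3 genes share 20.0%, 19.1% and 16.8% of their exon bases with neighbours on the opposite strand. NIP7 read 31.3, 23.7 and 24.3 there (-1.33, adjusted p = 2.92e-06). NOC3L and RPF2 both differed by -1.23 (adjusted p = 1.29e-07 and 3.33e-08). In all 6 genes every KYSE510 control lay below every KYSE150 control. By role, 6 of 6 DEAD-box helicases and 4 of 4 RNA methyltransferases and partners, DKC1 included, were called lower in KYSE510. So were both 5S loading factors and 13 of 16 NOC proteins and scaffolds. With centred libraries 5 of 6 helicases and 10 of 16 NOC proteins and scaffolds were.

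**Figure D5:**
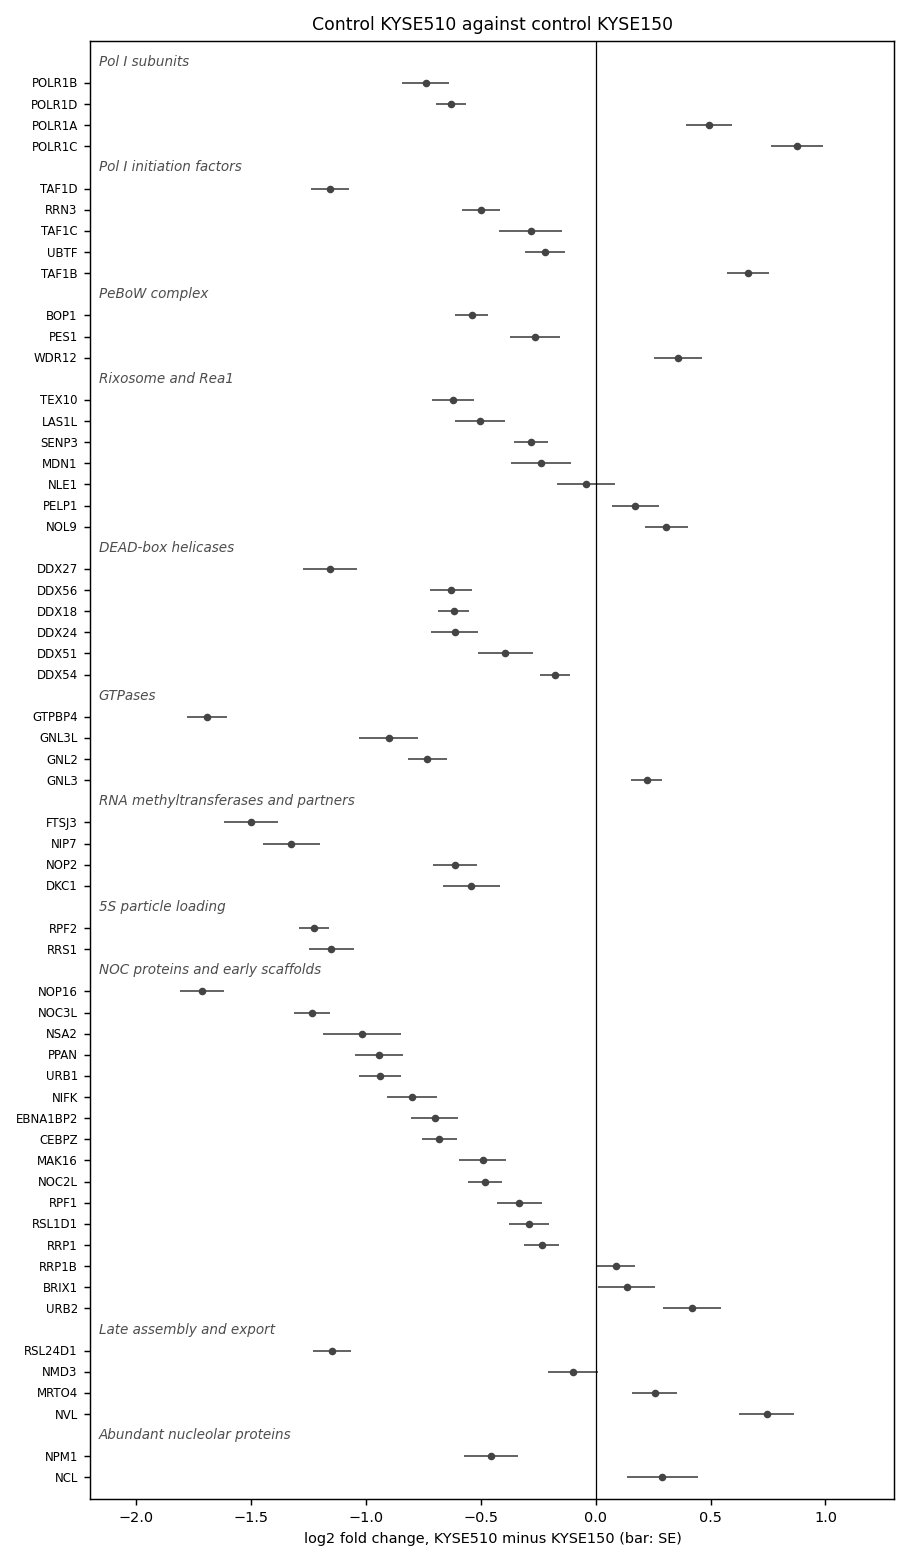
Log2 difference between control KYSE510 and control KYSE150 (x axis, KYSE510 minus KYSE150, bar: SE) of each of the 57 members (rows, grouped by role). All 6 helicases lie left of 0, NOP16 lies lowest at -1.71, and POLR1A and POLR1C lie right of 0 while POLR1B and POLR1D lie left.

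Pol I subunits parted by direction between the lines. POLR1C was 6.87 ± 0.725 RPKM in KYSE150 controls and 13 ± 1.02 in KYSE510 controls, the highest difference among the members (0.88, SE 0.11, limma adjusted p = 3.99e-05). It shares 17.4% of its exon bases with neighbours on the opposite strand. POLR1A was 14 ± 1.02 against 20 ± 2.63 (0.49, adjusted p = 0.00109). POLR1B (12.2 ± 0.972 against 7.1 ± 0.489, -0.74) and POLR1D (9.4 ± 0.357 against 5.9 ± 0.0768, -0.63) were lower in KYSE510. All 4 were called. Among the SL1 subunits TAF1B was higher in KYSE510 (0.66, adjusted p = 7.45e-05), TAF1D lower (-1.16) and TAF1C not called (-0.28, adjusted p = 0.0907). RRN3 was lower (-0.50) and UBTF near the threshold (-0.22, adjusted p = 0.0463).

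Within PeBoW, BOP1 (-0.54) and PES1 (-0.26, limma adjusted p = 0.0495) were lower in KYSE510 and WDR12 higher (0.36, adjusted p = 0.0114). The calls of UBTF and PES1 were lost in most of the alternatives. NVL read 5.83, 6.14 and 4.54 RPKM in KYSE150 controls and 10.5, 8.75 and 9.27 in KYSE510 controls (0.74, SE 0.12, adjusted p = 0.000213). The other members called higher in KYSE510 were URB2 (0.42), NOL9 (0.31), MRTO4 (0.26) and GNL3 (0.22). NPM1 was lower (-0.46, adjusted p = 0.00578), while NCL was not called (0.29, 95% interval -0.05 to 0.63). MYC, set beside these, was higher in KYSE510 by 3.14 (SE 0.27, adjusted p = 1.47e-06).

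A further 52 genes of the same pathway were tested gene by gene. Their list was chosen with earlier results of these data known and was not tested as a set. Of the 52, 32 were lower in KYSE150 (33.9% of all genes were), with a median of -0.07. Limma called 1 lower, as it did 0.123% of all genes. That gene was TMA16, a factor that binds large-subunit particles, which fell from 9.21 ± 0.253 to 5.68 ± 0.138 RPKM in KYSE150 (-0.65, SE 0.07, limma adjusted p = 0.00394) and stood at -0.25 in KYSE510 (adjusted p = 0.411). BCCIP (-0.49), the Pol I subunit gene CD3EAP (-0.49) and LYAR (-0.45) were the next lowest in KYSE150, and POLR2L, a subunit shared by the polymerases, stood at 0.48. Without the replicate block none of these 4 was called. With it, 4 of the 52 were called lower in KYSE150 (1.66% of all genes were), namely TMA16 (limma adjusted p = 0.0103), BCCIP (0.0373), FBL (0.0458) and LYAR (0.049). In KYSE510 the list had a median of -0.04, with 32 lower (56.8% of all genes were) and 0 called by limma or by voom (2 lower and 0 higher at an unadjusted p under 0.05). Between control lines, 41 of 52 were lower in KYSE510 (54% of all genes were), 32 were called lower (33.7%) and 4 higher (28.3%), and the median was -0.41. LLPH (-1.65), SBDS (-1.62), the SL1 subunit TAF1A (-1.50), the H/ACA protein NHP2 (-1.39) and LYAR (-1.02) led that list.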

How the data were processed

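RNA sequencing libraries from 4 groups of 3 were analysed from 1 deposited table of RPKM values, which the authors made from read counts, exon lengths and library totals, per the file headers and values. HISAT2, DESeq and GRCh38 are named in the submitters' processing notes, without versions or roles, and the use of strand is not given in the sources used here. Values times exon length fell on whole multiples of 1 read (100% within 0.01 reads), which gave each library's depth. Libraries were grouped by cell line and treatment in the labels.

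The main test was limma 3.58.1 in R 4.3.3, with trend, on log2(RPKM + 0.5) over the 17823 genes that reached 0.5 RPKM in at least 3 libraries. It had 4 group means over all 12 libraries (8 residual degrees of freedom), Benjamini-Hochberg adjustment over all genes and a threshold of 0.05. Contrasts were silencing in each line, their mean and difference, and control KYSE510 minus control KYSE150. A non-overlapping gene has all 3 libraries of a group beyond all 3 of the other. Replicate numbers were taken from the titles. Same-numbered control and silenced libraries deviated together (r 0.147 to 0.415 in 6 of 6 pairs, against -0.385 to 0.184 for other numbers). On that ground the numbers were taken as pairs, and the blocked fit (residual degrees of freedom: 4) stands beside the results it changes. The labels name no pairing, so it was read from these same data, and calls with the block depend on it. KYSE150 control 2 went more with silenced library 1 (0.184) than with silenced library 2 (0.147). Deviations within a group sum to 0, so a positive same-number r lowers the others.

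Values are given for all Pol I subunits, initiation factors and PeBoW genes, the 5 lowest and 5 highest members of each comparison, members called with or without the block, NPM1 and NCL, and at most 5 other pathway genes a comparison. Genes outside this rule that are named, among them TEX10, SENP3, GNL2, the late factors and the members called in an alternative, were chosen after their values were seen. The members and lists were chosen with earlier results of these data known. Of 58 other pathway genes listed, 52 were in the table and tested. Alternatives were a pseudocount of 1, no filter, libraries centred on their median, the 6 libraries of a comparison alone, the block, each library left out, and, chosen after seeing the data, limma's voom on the recovered reads with and without the block. Promoter windows came from RefSeq (GRCh38.p14). At this depth the members rest on 224 reads or more in every library, and the number of libraries limits precision.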

Additional observations from a re-analysis of the deposited data

How the results depend on the processing

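No member called by the main test changed sign under any alternative run. For silencing this covers NOC3L in KYSE150 alone, since no other member was called. The 2 planned count models were not run, and voom on the recovered reads was used instead. In KYSE150 the count of members called was 1 as reported, 0 with centred libraries, 0 with the 6 libraries of the comparison, 5 with the replicate block that pairs same-numbered libraries, 25 with voom and the block, and 0 to 8 with a library left out. The block gave the members called in KYSE510, in the mean and in the difference no other count than 0. With the block 5 members were lower at an unadjusted p under 0.05 in KYSE510, against 1 as reported, 2 with no filter, 0 with centred libraries, 0 with voom, 7 with voom and the block, and 0 to 3 with a library left out. In KYSE150 the members lower at that p were 21, and 9 to 26 with a library left out. The median of the members in KYSE150 was -0.17, -0.3 with centred libraries and -0.22 to -0.12 with a library left out, and 42 to 48 members were then lower. In KYSE510 the median ran from -0.04 to 0.03, and 22 to 38 members were lower. Centring turned the sign of 9 uncalled members in KYSE150 and 5 in KYSE510. Leaving out 1 library of the line turned the sign of 2 to 6 uncalled members in KYSE150 and 7 to 12 in KYSE510. The mean over lines had 7 called with voom and the block, and 0 to 1 with a library left out, and the difference had 8 with voom and the block. In controls 44 to 49 were called with a library left out, 35 to 40 lower and 7 to 9 higher, with medians from -0.56 to -0.46. The cause of these moves was not tested. Counts of calls rest on 3 libraries a group, and a fit without a library assumes that the remaining ones vary like the other groups.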
